A study of Mus musculus with 4 samples.

Results

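A set of 10 genes of glycolysis was followed in RNA-seq libraries of mouse small intestinal organoids with Yap lost or forced on. Their symbols, Slc2a1, Hk1, Hk2, Pfkl, Pfkp, Aldoa, Tpi1, Pgk1, Pgam1 and Ldha, each matched 1 row of the deposited table, so 10 of its 22632 genes are described. They lie on chromosomes 4 (Slc2a1), 6 (Hk2 and Tpi1), 7 (Aldoa and Ldha), 10 (Hk1 and Pfkl), 13 (Pfkp), 19 (Pgam1) and X (Pgk1). Organoids are epithelial cultures grown from isolated crypts, and these were harvested 24 hours after seeding in a gel with EGF, Noggin and R-spondin. Yap-/- organoids came from Yapfl/fl;VillinCre mice, which lose Yap in the gut epithelium, and were set against Yap+/- organoids from Yap+/fl;VillinCre mice. YapTg organoids, with a wild-type Yap transgene that needs doxycycline and a Cre-driven reverse transactivator (rtTA), were grown with doxycycline from seeding or without it. All 4 libraries are epithelium that carries a Cre or transgene allele, and no library of unmodified organoids or of doxycycline without the transgene was analysed here. The strain, age and number of mice, and the Cre that drives rtTA, are not given in the labels.

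Glycolysis splits glucose into pyruvate in the cytosol and yields ATP without oxygen. Glucose enters through carriers such as GLUT1, is trapped by hexokinase, is committed by phosphofructokinase, and is cleaved by aldolase into triose phosphates that later enzymes turn into pyruvate. Lactate dehydrogenase then reduces pyruvate to lactate and restores the NAD+ that the pathway uses. In the small intestine, crypt cells use glycolysis, and enterocytes also carry liver-type isozymes that handle dietary fructose and make glucose.

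There was 1 library per group, so there is no replicate check and no p-value. Library totals ran from 44934170 to 75269003 reads, and the 10 genes had between 725 reads (Hk1, uninduced YapTg) and 56939 reads (Aldoa, Yap+/-). Values are RPKM, read counts scaled for gene length and library total, so that levels of different genes can be compared. Yap1 was at 3.35 RPKM in the Yap-/- library, against 16.7 RPKM in the Yap+/- library, and at 1039 RPKM with doxycycline, against 25.1 RPKM without it. All 9 epithelial markers were expressed, among them Epcam and Vil1. Of 9 stromal and muscle markers only Vim reached 1 RPKM, and Col3a1, Dcn and Des were at 0 in every library. Intervals below are exact 95% intervals of a ratio, and cover counting error alone.

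The 3 genes of glucose entry among the 10 had higher values with doxycycline than without it. Slc2a1, which encodes the GLUT1 glucose carrier, was at 22.1 RPKM in Yap-/- organoids against 30.1 RPKM in Yap+/- organoids, and at 35.1 RPKM with and 24.6 RPKM without doxycycline. The induced YapTg library was the highest and the Yap-/- library the lowest. Hk1, the hexokinase found in most tissues, was at 2.12 RPKM in Yap-/- organoids against 4.68 RPKM in Yap+/- organoids, and at 2.78 RPKM with and 1.89 RPKM without doxycycline. The Yap+/- library stood above the other 3 libraries, which spanned less than 1 RPKM. Hk2, an inducible hexokinase that docks on mitochondria, was at 3.79 RPKM in Yap-/- organoids against 5.04 RPKM in Yap+/- organoids, and at 13.1 RPKM with and 8.24 RPKM without doxycycline. Both YapTg libraries were above both libraries of the Villin-Cre pair. The highest value of Hk2 was 3.45 times its lowest, the widest spread among the 10 genes.

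Of the genes of the committing and splitting steps, Aldoa and Tpi1 were far more abundant than the phosphofructokinase genes. Pfkl, the liver-type subunit of phosphofructokinase, was at 43.5 RPKM in Yap-/- organoids against 53.4 RPKM in Yap+/- organoids, and at 22.2 RPKM with and 34.1 RPKM without doxycycline. The induced library was the lowest. Pfkp, the platelet-type subunit of the same enzyme, was at 30.1 RPKM in Yap-/- organoids against 33.7 RPKM in Yap+/- organoids, and at 30.1 RPKM with and 27.4 RPKM without doxycycline. This was the flattest of the 10 genes, with a highest value 1.23 times the lowest. Aldoa, the aldolase of muscle and many other tissues, was at 295 RPKM in Yap-/- organoids against 363 RPKM in Yap+/- organoids, and at 229 RPKM with and 226 RPKM without doxycycline. The YapTg libraries were nearly level with each other and below the other 2 libraries. Tpi1, which interconverts the triose phosphates, was at 298 RPKM in Yap-/- organoids against 329 RPKM in Yap+/- organoids, and at 160 RPKM with and 238 RPKM without doxycycline. The induced library was again the lowest.

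The later steps held both the most abundant of the 10 genes and some of the scarcer ones. Pgk1, a phosphoglycerate kinase that makes ATP, was at 31.3 RPKM in Yap-/- organoids against 41.4 RPKM in Yap+/- organoids, and at 25.2 RPKM with and 24.4 RPKM without doxycycline. The Yap+/- library was the highest, and the YapTg libraries were nearly level. Pgam1, the phosphoglycerate mutase of most tissues, was at 17.5 RPKM in Yap-/- organoids against 20.5 RPKM in Yap+/- organoids, and at 9.56 RPKM with and 15.5 RPKM without doxycycline. Ldha, the lactate dehydrogenase subunit of glycolytic cells, was at 422 RPKM in Yap-/- organoids against 461 RPKM in Yap+/- organoids, and at 236 RPKM with and 350 RPKM without doxycycline. Pgam1 and Ldha shared 1 order of libraries with Pfkl and Tpi1, from Yap+/- as the highest through Yap-/- and uninduced YapTg to induced YapTg. In all, 8 of the 10 genes had their highest value in the Yap+/- library and the other 2, Slc2a1 and Hk2, in the induced library. Of 11285 genes that reached 1 RPKM in any library, 7.48% were highest in the Yap+/- library, 40.1% in the induced, 27.9% in the uninduced and 24.5% in the Yap-/- library.

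**Figure D1:**
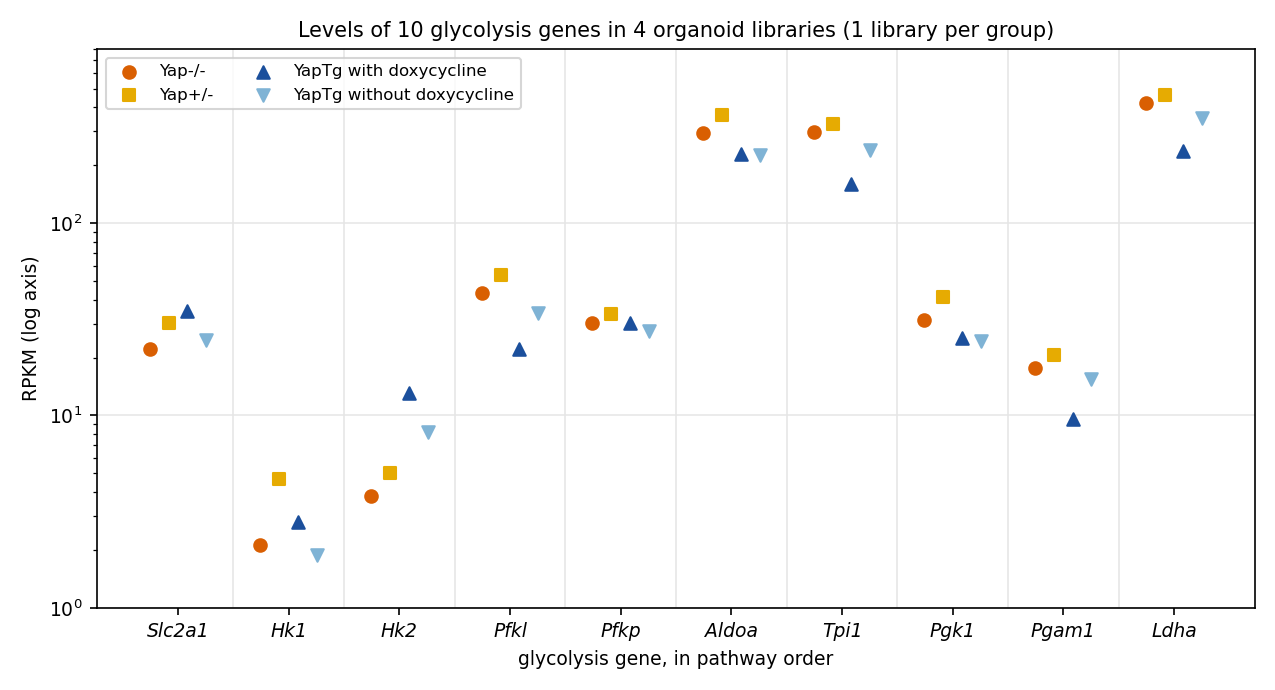
RPKM (log axis) of each glycolysis gene, in pathway order, in the 4 libraries, with 1 marker per library. The Yap+/- squares are the highest marker for 8 of the 10 genes, and the induced YapTg triangles are the highest for Slc2a1 and Hk2 and the lowest for Pfkl, Tpi1, Pgam1 and Ldha.

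Several of these genes share sequence with other genes. Of the 50-base windows in the longest GENCODE M21 transcript of Pgk1, 68.0% also occurred in a transcript of another gene, and the value was 41.5% for Pgam1. The values were 17.1% for Pfkp, 16.6% for Ldha, 13.5% for Aldoa and 7.51% for Tpi1, and at most 2.55% for Slc2a1, Hk1, Hk2 and Pfkl. Ldha had 12 annotated pseudogenes that aligned at 90% identity or more over 200 bases, Pgk1 had 4, Pgam1 3, and Aldoa and Tpi1 2 each. How reads with several matches were treated is not given in the sources used here, so the low levels of Pgk1 and Pgam1 beside their neighbours in the pathway may be under-counted. Their ratios between libraries use the same gene model in each.

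The promoters of 4 of the genes are shown because they span the patterns above: Slc2a1 and Hk2, highest in the induced library, Pgk1, nearly level within the YapTg pair, and Ldha, lowest in the induced library. Each line gives the 250 bases before the start of the gene, 5′ to 3′ on the strand of the gene, from RefSeq on GRCm38.p6. Capitals mark ACGTG or GCGTG, the core letters bound by hypoxia-inducible factors, and CACGTG, the E-box that MYC and ChREBP-type factors read, on either strand. They lie at chr4:119108495-119108744 (plus strand) for Slc2a1, chr6:82774455-82774704 (minus strand) for Hk2, chrX:106186850-106187099 (plus strand) for Pgk1 and chr7:46845554-46845803 (plus strand) for the first of 2 Ldha starts.
Slc2a1: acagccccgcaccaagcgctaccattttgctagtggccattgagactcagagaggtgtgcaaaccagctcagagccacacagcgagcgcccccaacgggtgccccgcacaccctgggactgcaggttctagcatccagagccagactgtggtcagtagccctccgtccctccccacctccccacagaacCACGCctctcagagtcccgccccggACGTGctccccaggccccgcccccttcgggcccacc
Hk2: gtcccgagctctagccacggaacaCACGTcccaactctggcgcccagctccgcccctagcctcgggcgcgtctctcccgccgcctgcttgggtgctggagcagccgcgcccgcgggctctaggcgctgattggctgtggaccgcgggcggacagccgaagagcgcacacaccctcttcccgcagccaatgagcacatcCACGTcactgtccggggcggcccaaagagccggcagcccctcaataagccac
Pgk1: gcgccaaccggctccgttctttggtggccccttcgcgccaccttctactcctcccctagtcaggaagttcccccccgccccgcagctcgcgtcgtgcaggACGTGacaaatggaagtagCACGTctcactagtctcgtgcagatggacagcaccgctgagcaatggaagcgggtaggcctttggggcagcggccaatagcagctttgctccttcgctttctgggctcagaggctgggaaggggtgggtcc
Ldha: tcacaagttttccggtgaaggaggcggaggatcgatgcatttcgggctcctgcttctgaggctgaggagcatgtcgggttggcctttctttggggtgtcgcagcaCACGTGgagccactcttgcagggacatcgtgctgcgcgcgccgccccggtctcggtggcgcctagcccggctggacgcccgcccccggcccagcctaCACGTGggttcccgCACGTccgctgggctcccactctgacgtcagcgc

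All 10 genes had a promoter entry, with 14 windows of 300 bases in all (250 before and 50 after a start), of which 2 of Aldoa overlap. ACGTG was present in 8 of the 14 windows, against 19.6% of 32851 windows of all genes. The 2 overlapping Aldoa windows, both among the 8, hold the same site. By gene it was present in 7 of the 10, and no share by gene was taken over all genes. GCGTG was in 7 of 14, against 32.4%. CACGTG, which holds ACGTG on each strand, was in 1 of 14, against 7.15% of all windows, and that window was the Ldha one above, with 2 copies. GGAATG, the core letters that TEAD factors, the DNA-binding partners of YAP, recognise, was in 1 of 14, an Aldoa window, against 14.7%. The Tpi1 window held none of these motifs. A match describes letters and not a bound site.

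Loss of Yap was the first comparison. All 10 glycolysis genes were lower in Yap-/- than in Yap+/- organoids, 9 of them by 1.36-fold or less. The hexokinase gene Hk1 differed most, at 2.21-fold lower (95% interval 2.06 to 2.37). Slc2a1 was 1.36-fold lower (1.31 to 1.42), Hk2 1.33-fold (1.24 to 1.42) and Pgk1 1.32-fold (1.27 to 1.38). Aldoa and Pfkl were 1.23-fold lower, Pgam1 1.17-fold, Pfkp 1.12-fold, Tpi1 1.10-fold and Ldha 1.09-fold. For all 10 genes the interval lay below no difference, as it did for 15.8% of the 10710 genes with 1 RPKM or more in either library. A log2 ratio below 0 was found for 34.5% of those genes and one above 0 for 65.5%.

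On the scale used for calls, the log2 ratio of RPKM plus 1, the median of the 10 genes was -0.29, against 0.05 over all genes. A call needed a 2-fold difference on that scale and 1 RPKM in the higher library. None of the 10 was called lower, against 0.57% of all genes, and none higher, against 0.336%. At 1.5-fold 1 of the 10, Hk1, was lower, against 1.57% of all genes, and none higher, against 1.34%. Hk1 had a log2 ratio of -0.86, and it was called lower with a pseudocount of 0.1 in place of 1. Its log2 ratio lay at percentile 0.784 of all genes, Slc2a1 at 2.73, Pgk1 at 3.14 and Hk2 at 3.99. Ldha, the mildest, lay at percentile 11.8. In whole-organoid RNA, fewer cells of a type and less RNA per cell cannot be told apart.

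**Figure D2:**
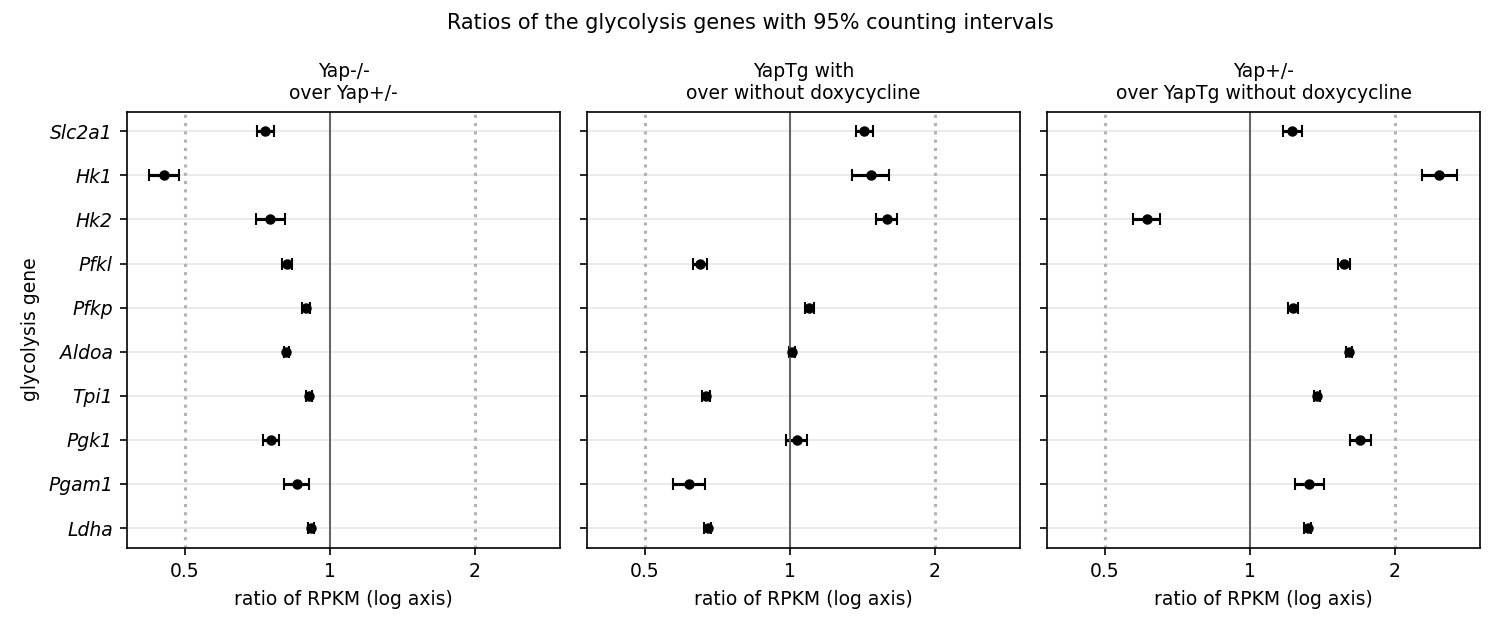
Ratio of RPKM (log axis) for each glycolysis gene in 3 comparisons, with 95% counting intervals from recovered reads and dotted lines at 2-fold. All 10 points lie left of 1 for Yap-/- over Yap+/-, 9 of 10 lie right of 1 for Yap+/- over uninduced YapTg, and the induced over uninduced panel has points on both sides.

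Induction of Yap was the second comparison, and the 10 genes lay on both sides of no difference. Those of the 10 that act in glucose entry were higher with doxycycline. Hk2 was higher by 1.59-fold (95% interval 1.51 to 1.67), Hk1 by 1.47-fold (1.35 to 1.61) and Slc2a1 by 1.43-fold (1.37 to 1.49). Outside the 10, the glucose carrier genes Slc5a1 (4.85-fold) and Slc2a2 (4.13-fold) and the hexokinase gene Hkdc1 (1.15-fold) were lower. Pgam1 was 1.62-fold lower (1.50 to 1.75), Pfkl 1.53-fold (1.48 to 1.59), Tpi1 1.49-fold (1.47 to 1.52) and Ldha 1.48-fold (1.46 to 1.51). Pfkp was 1.10-fold higher (1.07 to 1.12). Aldoa and Pgk1 did not differ beyond counting error, with ratios of 1.01 (0.997 to 1.03) and 1.03 (0.984 to 1.09).

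The median log2 ratio of the 10 genes was 0.03, against -0.04 over 11108 genes at 1 RPKM. Of the 10 genes 6 had a log2 ratio above 0, against 45.5% of all genes, and 4 below, against 54.5%. None of the 10 reached 2-fold in either direction, against 5.85% of all genes higher and 5.8% lower. The counting interval lay above no difference for 4 of the 10 genes, against 36.6% of all genes, and below it for 4, against 45%, so these shares are near those of all genes. At 1.5-fold, 2 of the 10, Pgam1 and Pfkl, were lower, against 13% of all genes, and 1, Hk2, was higher, against 11.4%. The 2 phosphofructokinase subunits lay on opposite sides, with log2 ratios of -0.59 for Pfkl and 0.13 for Pfkp. The signs of all 10 genes in each comparison held under median-ratio and upper-quartile scaling.

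**Figure D3:**
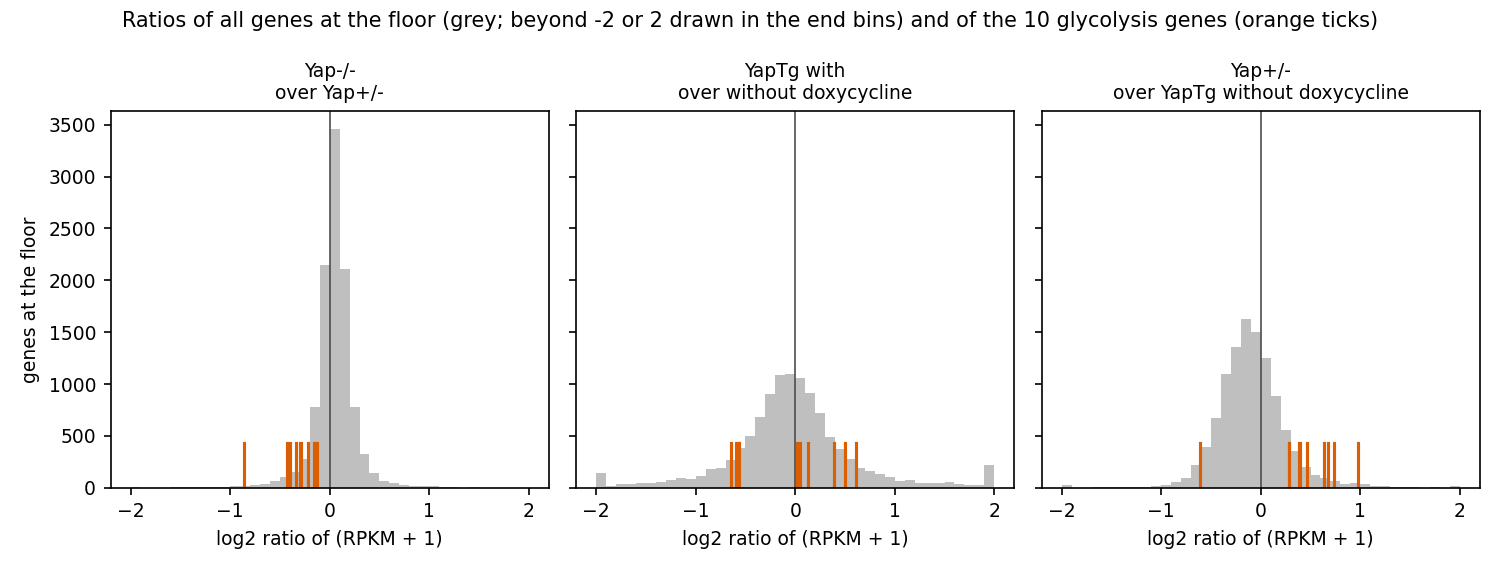
Number of genes at 1 RPKM or more by log2 ratio of RPKM plus 1, in bins of grey, with the 10 glycolysis genes as orange ticks. The ticks all lie below 0 in the Yap-/- panel, on both sides of 0 in the induced panel, and above 0 except for Hk2 in the panel of Yap+/- over uninduced YapTg.

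The Yap+/- and uninduced YapTg libraries, with neither full loss nor induction, gave a yardstick. They share a library each with the comparisons above, so their values are set side by side and not counted as further evidence. Of the 10 genes 9 were higher in the Yap+/- library, against 34.4% of 10883 genes with a log2 ratio above 0. Hk1 had 4.68 RPKM in Yap+/- organoids against 1.89 RPKM in uninduced YapTg organoids, 2.47-fold higher (95% interval 2.27 to 2.69). Pgk1 was 1.70-fold, Aldoa 1.60-fold, Pfkl 1.57-fold and Tpi1 1.38-fold higher. Hk2 alone was lower, by 1.64-fold (1.54 to 1.74), where 65.6% of all genes had a log2 ratio below 0. The counting interval lay above no difference for 9 of the 10 genes, against 23.1% of all genes, and below it for 1, against 51.5%. At 1.5-fold 4 of the 10 were higher, against 3.39%, and 1 lower, against 4.7%. The median log2 ratio of the 10 was 0.43, beside -0.29 for Yap-/- over Yap+/-, and the median of all genes was -0.11. Scaling by median ratios moved the median of all genes in this comparison to 0.02 and that of the 10 genes to 0.58. None of the 10 was called, against 1.11% of all genes higher and 0.726% lower (121 and 79 genes, 173 and 60 after median-ratio scaling, or 156 and 63 after upper-quartile scaling). Hk1 was called higher after either scaling. High levels in the Yap+/- library and a lower level with loss of Yap cannot be told apart for the genes that were highest there.

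Among other glycolytic genes, Aldoc and Pklr differed more between libraries than any of the 10 genes did. Their highest values were 10.9 and 4.51 times their lowest, against 3.45 times for Hk2, the widest of the 10. The ratio was only 1.32 for Pkm and 1.22 for Hkdc1. Aldoc, the brain-type aldolase, was at 1.98 RPKM with and 8.78 RPKM without doxycycline, 4.44-fold lower. At the last step before pyruvate, Pklr, the liver and red cell pyruvate kinase, was at 72.2 RPKM with and 170 RPKM without doxycycline, and at 325 RPKM in Yap-/- organoids against 214 RPKM in Yap+/- organoids. Pkm, listed under its older symbol Pkm2, was at 346 RPKM with and 343 RPKM without doxycycline. Its share of pyruvate kinase RPKM was 82.7% with and 66.9% without doxycycline, and 56.9% in Yap-/- organoids against 67.9% in Yap+/- organoids. The table gives 1 value per gene, so the splice forms of Pkm were not separated. Of the 50-base windows of Pkm, 34.4% also occurred in a transcript of another gene, so its level and its share may be under-counted.

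Hkdc1, a hexokinase-domain gene of the gut, was the most abundant of 4 hexokinase genes in each library. It held 89.1% of the summed RPKM of Hk1, Hk2, Hk3 and Hkdc1 in Yap-/- organoids against 83.1% in Yap+/- organoids, and 71.4% with and 81.9% without doxycycline. Hk2 held 6.99% in Yap-/- organoids against 8.77% in Yap+/- organoids, and 23.6% with and 14.7% without doxycycline. Hkdc1 itself was at 39.7 RPKM with and 45.8 RPKM without doxycycline, and the sum over the 4 genes was 55.6 RPKM with and 56.0 RPKM without it. Hk3 was at 0 in every library but Yap+/-. Pfkp held 55.2% of phosphofructokinase RPKM with and 41.1% without doxycycline, and 36.8% in Yap-/- organoids against 35.7% in Yap+/- organoids. Pfkm, the muscle-type subunit, was 2.36-fold lower with induction on the RPKM scale, at 2.24 RPKM with and 5.30 RPKM without doxycycline. Ldhb and Ldhc did not reach 1 RPKM in any library, so Ldha held 99.96% or more of lactate dehydrogenase RPKM in every library.

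**Figure D4:**
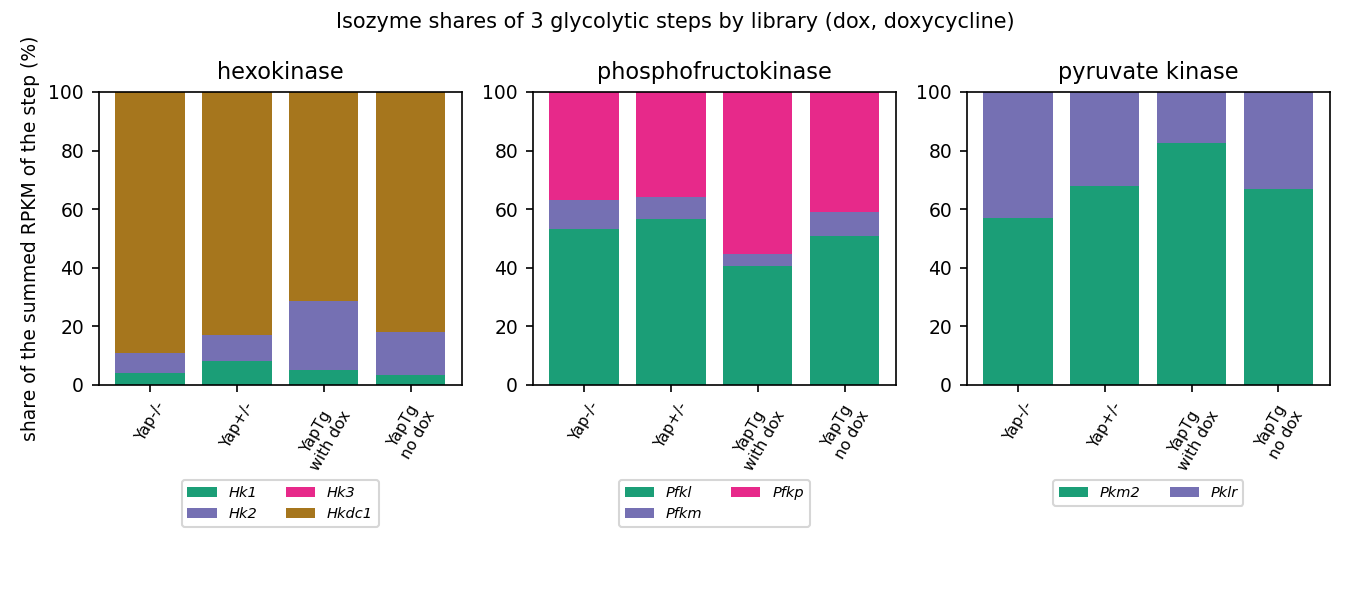
Share of the summed RPKM of a step (percent) taken by each isozyme gene, by library. With doxycycline the shares of Hk2 (23.6%), Pfkp (55.2%) and Pkm2 (82.7%) are higher than in the other 3 libraries.

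Of 19 other glycolytic genes, 12 reached 1 RPKM. In Yap-/- organoids none of these 12 was called, against 0.57% of all genes lower and 0.336% higher. Of the 12, 8 had a log2 ratio above 0, against 65.5% of all genes, and the median was 0.06, against 0.05 over all genes. Pklr was 1.52-fold higher and the muscle enolase gene Eno3 1.48-fold lower. With induction 3 of 12 were called lower, Aldoc and Pklr among them, against 5.8% of all genes, 0 were called higher, against 5.85%, and the median was -0.62. Gpi1, the phosphoglucose isomerase, was at 38.7 RPKM with and 70.1 RPKM without doxycycline, 1.81-fold lower, with 25.3% of its windows shared with other genes. Eno1, the enolase of most tissues, was at 25.9 RPKM with and 25.1 RPKM without doxycycline, though 72.2% of its windows are shared with other genes. Gapdh was listed at 3.26 RPKM with and 4.42 RPKM without doxycycline, and 82.5% of its windows are shared, so its level is not read here. Pgam2, the muscle mutase, was at 1.38 RPKM with and 2.12 RPKM without doxycycline, and the testis gene Pgk2 was at 0 in every library.

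Some carriers and genes of fructose use and glucose release differed by over 2-fold with induction, where none of the 10 genes did. Of 7 expressed carriers 4 were called lower, against 5.8% of all genes, and none higher, against 5.85%, with a median log2 ratio of -1.67. Not called were the glucose carrier gene Slc2a8 (1.53-fold lower), the lactate carrier gene Slc16a1 (1.06-fold lower) and Bsg, which encodes a partner protein of lactate carriers (1.44-fold lower). Slc2a5, the fructose carrier GLUT5, was at 4.00 RPKM with and 31.6 RPKM without doxycycline, 7.90-fold lower (95% interval 7.39 to 8.46). Slc5a1, the sodium-glucose carrier of the brush border, was 4.85-fold lower, and Slc2a2, which encodes GLUT2, 4.13-fold lower. Slc16a3, the lactate exporter MCT4, was at 3.68 RPKM with and 13.9 RPKM without doxycycline, 3.76-fold lower, beside 1.48-fold for Ldha. Of 8 expressed genes of glucose release and fructose entry 4 were called lower, against 5.8% of all genes, and none higher, against 5.85%: G6pc by 18.3-fold, Fbp1 by 9.90-fold, the fructokinase gene Khk by 4.54-fold and the triokinase gene Dak, now named Tkfc, by 3.36-fold. Pcx, the pyruvate carboxylase gene, was 1.94-fold higher and Pck2, a mitochondrial PEP carboxykinase gene, 1.27-fold higher, and neither was called. The median log2 ratio of the 8 was -1.12 with induction and 0.49 in Yap-/- organoids, and that of the carriers in Yap-/- organoids was 0.22. In Yap-/- organoids G6pc was the only gene of all these pathway lists that was called, where 0.336% of all genes were called higher and 0.57% lower. It was at 41.3 RPKM in Yap-/- organoids against 17.3 RPKM in Yap+/- organoids, 2.39-fold higher (2.28 to 2.51). Slc2a5 and Fbp1 were 1.84-fold and 1.85-fold higher there.

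Of 9 expressed genes that steer the flux, 3 were called lower with induction, against 5.8% of all genes, and 1 higher, against 5.85%. Pdk1 and Pdk2, kinases that shut pyruvate dehydrogenase, were at 3.67 and 4.22 RPKM with doxycycline, against 10.6 and 10.5 RPKM without it, and Pdp1, a phosphatase that opens it, was at 4.18 RPKM with and 1.42 RPKM without doxycycline. These 3 and Pfkfb4, which sets fructose 2,6-bisphosphate and was 2.61-fold lower, were the 4 genes called. Pfkfb3, another gene of that step, was 1.61-fold lower in Yap-/- organoids and 1.41-fold higher with doxycycline. The median log2 ratio of the 9 was -0.39 with induction, and none was called in Yap-/- organoids, against 0.57% of all genes lower and 0.336% higher. No gene of pyruvate entry and pyruvate dehydrogenase (7 expressed), the pentose phosphate branch (8) or the citric acid cycle (12) was called in either comparison. At the shares of all genes called in Yap-/- organoids, lists of this size would seldom hold a call. The medians of these lists with induction were -0.19, -0.13 and -0.35, and in Yap-/- organoids 0.09, 0.04 and 0.11. Furthest from 0 with induction were Brp44, a pyruvate carrier subunit now named Mpc2 (1.82-fold lower), Taldo1 of the pentose branch (1.54-fold lower) and Mdh2 of the citric acid cycle (1.63-fold lower). In Yap-/- organoids they were Brp44l, the other carrier subunit, and H6pd of the pentose branch (1.32-fold lower). Brp44l was 1.56-fold lower (95% interval 1.26 to 1.94), but scarce, at 1.08 RPKM in Yap-/- against 1.69 RPKM in Yap+/- organoids.

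Hypoxia-response genes outside glycolysis were, like 8 of the 10 genes, mostly highest in the Yap+/- library. All 15 had a log2 ratio below 0 in Yap-/- against Yap+/- organoids, against 34.5% of all genes, with a median of -0.37. None was called, against 0.57% of all genes lower and 0.336% higher. Adm, a vasodilator peptide gene at 0.256 RPKM in Yap-/- organoids against 1.23 RPKM in Yap+/- organoids, was furthest from 0. Of the 15, 14 were highest in the Yap+/- library, where 7.48% of all genes were. With induction 5 of 14 expressed genes were called lower and none higher, against 5.8% and 5.85% of all genes, with a median of -0.66. Of these 14, 12 had a log2 ratio below 0, against 54.5% of all genes, and 2 above, against 45.5%. Adm was 2.29-fold higher, at 3.30 RPKM with and 1.44 RPKM without doxycycline, and was not called. Ankrd37 was 5.94-fold lower, the mitophagy gene Bnip3 4.44-fold, the stress gene Ndrg1 4.01-fold, the carbonic anhydrase gene Car9 3.89-fold and the prolyl hydroxylase gene Egln3 2.47-fold. Egln3 was at 7.43 RPKM with and 18.3 RPKM without doxycycline, and at 29.6 RPKM in Yap-/- organoids against 45.3 RPKM in Yap+/- organoids. Hif1a, a subunit of the oxygen-regulated factor HIF-1, was highest in the Yap-/- library, at 38.8 RPKM in Yap-/- organoids against 29.8 RPKM in Yap+/- organoids, and 18.8 RPKM with and 24.7 RPKM without doxycycline. Oxygen in the cultures was not measured, and its part in these values was not tested.

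Among 14 regulators, Mlxipl, which encodes the glucose-sensing factor ChREBP, was the only gene called, at 16.8 RPKM with and 52.9 RPKM without doxycycline. That is 1 of 14 called lower with induction, a share near the 5.8% of all genes, and none higher, against 5.85%. In Yap-/- organoids none was called, against 0.57% of all genes lower and 0.336% higher. The median log2 ratio of the 14 was -0.18 with induction and 0.08 in Yap-/- organoids. Myc, a driver of glycolytic genes in many cells, was at 52.4 RPKM with and 33.0 RPKM without doxycycline, 1.59-fold higher, and at 26.2 RPKM in Yap-/- organoids against 25.3 RPKM in Yap+/- organoids. Myc and Hk2 shared the order of libraries within the YapTg pair and differed in the other, where Hk2 was 1.33-fold lower in Yap-/- organoids.

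**Figure D5:**
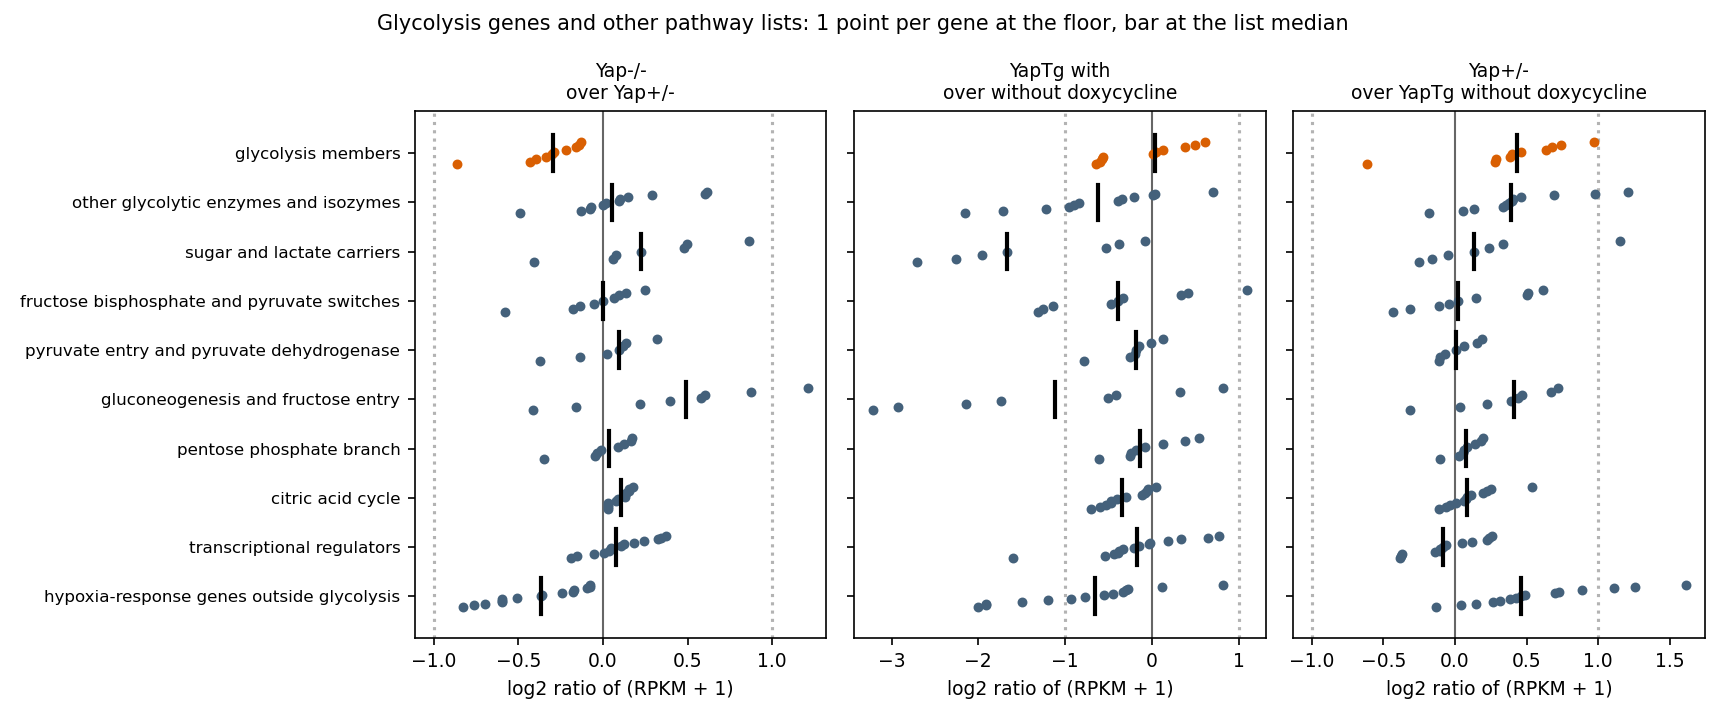
Log2 ratio of RPKM plus 1 for each gene at 1 RPKM or more, by list, with a bar at the list median and dotted lines at 2-fold, in 3 comparisons. The 10 glycolysis genes (orange) and the hypoxia-response genes all lie below 0 for Yap-/- over Yap+/-, and with induction the carriers and the genes of glucose release and fructose entry include points further below 0 than any of the 10 genes.

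Markers of cell types differed between the same libraries. Counts of markers called stand beside 5.8% of all genes called lower and 5.85% higher with induction, and 0.57% lower and 0.336% higher in Yap-/- organoids. The summed RPKM of 10 enterocyte markers was 10682 in Yap-/- and 7673 in Yap+/- organoids, and 1455 with and 4721 without doxycycline. Fabp1 alone was at 5766 RPKM in Yap-/- organoids against 3457 RPKM in Yap+/- organoids. In that comparison 7 of the 10 had a log2 ratio above 0, against 65.5% of all genes. The other 3, among them Apoa1 (1.26-fold lower), were below 0, and none of the 10 was called. With induction 7 of the 10 were called lower, Fabp1 by 18.3-fold and Treh by 10.2-fold. The 7 goblet markers summed to 3429 RPKM in Yap-/- organoids against 2608 RPKM in Yap+/- organoids, and to 675 RPKM with and 2655 RPKM without doxycycline, with 7 of 7 called lower on induction, Agr2 and Fcgbp furthest. Paneth markers summed to 9472 RPKM in Yap-/- organoids against 4742 RPKM in Yap+/- organoids, and to 7725 RPKM with and 11721 RPKM without doxycycline, with 3 of 5 called higher in Yap-/- organoids, Ang4 by 2.20-fold and Itln1 by 2.19-fold, and 1 of 5 called lower on induction. Stem cell markers summed to 581 RPKM in Yap-/- organoids against 310 RPKM in Yap+/- organoids, and to 53.0 RPKM with and 523 RPKM without doxycycline, with 1 of 5 called higher in Yap-/- organoids and 4 of 5 called lower on induction, Olfm4 by 19.3-fold and Lgr5 by 6.76-fold. Enteroendocrine markers summed to 231 RPKM in Yap-/- organoids against 199 RPKM in Yap+/- organoids, and to 46.9 RPKM with and 116 RPKM without doxycycline, with 5 of 5 expressed called lower on induction, Neurog3 by 9.58-fold and Tac1 by 4.48-fold. Tuft markers were scarce and summed to at most 14.4 RPKM. Epithelial markers summed to 2556 RPKM in Yap-/- organoids against 2979 RPKM in Yap+/- organoids, and to 6385 RPKM with and 2629 RPKM without doxycycline, with 3 of 9 called higher and 1 lower on induction, Krt18 by 5.18-fold and Krt19 by 2.97-fold higher. Proliferation markers summed to 154 RPKM in Yap-/- organoids against 139 RPKM in Yap+/- organoids, and to 181 RPKM with and 215 RPKM without doxycycline, with 0 of 8 called in either comparison. Immune markers summed to between 3.21 and 7.17 RPKM and red blood cell markers to at most 0.149 RPKM. The part of cell type makeup in the values of the glycolysis genes was not tested.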

How the data were processed

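The authors deposited 1 table of 22632 genes with 4 columns of values, 1 per library, and all 4 were used. The header names no unit; the deposited values behave as RPKM, because multiplying by gene length and library total gives whole reads. Per the submitters' processing notes, CASAVA 1.8, FastQC and TopHat 1.4.1 were used with the mm9 build; the counter, annotation release, strand setting, filters and treatment of reads with several matches are not stated in the labels or files. RPKM values were used as deposited. Library totals were solved from GENCODE M21 gene lengths, and a whole gene length that makes reads whole (within 0.001) in every library was found for 17377 of 17378 genes above 0. The GENCODE M21 length was taken where it fitted, otherwise the shortest, which gives the fewest reads and the widest interval.

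Ratios for calls used RPKM plus a pseudocount of 1, which shrinks differences of scarce genes, while printed folds have no pseudocount. Genes were called at 2-fold with 1 RPKM in the higher library. Intervals are exact conditional binomial (Clopper-Pearson) 95% intervals, and PCR copies are not independent molecules. No test was possible, since each group is 1 library. The samples were grouped by genotype and source label, and 3 comparisons were made. The 21 gene lists, that of the members among them, were chosen with earlier results of these data known. All 10 members were described. From the other 9 pathway lists every called gene, isozymes of the members' steps, Gapdh, Eno1, Pkm, Gpi1, Hif1a and Myc, and otherwise the gene furthest from 0 were named, as were the 2 markers of a list furthest from 0; Eno3, Slc2a8, Slc16a1, Bsg, Pcx and Pck2, and Slc2a5 and Fbp1 in Yap-/- organoids, were named after their values were seen. Some genes that this rule names are not reported here, and isozyme shares are over the genes named for a step. Copies were sought with blastn 2.17.0, and intervals computed with scipy 1.17.1, in Python 3.11.15. The steps were checked on simulated data. The alternatives were other pseudocounts, floors, scalings and thresholds, and lists without some members.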

Additional observations from a re-analysis of the deposited data

How the results depend on the processing

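The results have 1 library behind each group, so only counting error is covered. No paired analysis was possible because each group has 1 library and no test was made. Between Yap-/- and Yap+/- organoids, the number of the 10 glycolysis genes called lower was 0. It was 1 with a pseudocount of 0.1 and with a 1.5-fold threshold (Hk1 in both), against 1.57% of all genes at 1.5-fold. It was 10 when an interval that excludes no difference was enough, against 15.8% of all genes. The median log2 ratio of -0.29 was -0.23 with a pseudocount of 5. With induction, 1 gene was called higher and 2 lower at 1.5-fold, against 11.4% and 13% of all genes. By the interval 4 were higher and 4 lower, against 36.6% and 45% of all genes. The median of 0.03 was 0.10 with upper-quartile scaling. For Yap+/- over uninduced YapTg, 1 gene was called higher with a pseudocount of 0.1 and under either scaling. At 1.5-fold 4 were higher and 1 lower, against 3.39% and 4.7% of all genes. By the interval 9 were higher and 1 lower, against 23.1% and 51.5% of all genes. The median of 0.43 was 0.58 with median-ratio and 0.53 with upper-quartile scaling. Shares of all genes called with a pseudocount of 0.1 were not computed. Leaving out the gene furthest from 0, Ldha with its 12 copies, or Pgk1 and Pgam1 (the last chosen after the data were seen) changed no count, and moved each median by less than the mean margin of the counting intervals. No gene of the 10 changed sign under a pseudocount or scaling that was tried. The log2 ratios of the single genes of the 10 and the medians of the other pathway lists were also taken under other pseudocounts and scalings. Of these values, 77 moved by more than the margin of a counting interval and 124 did not. The margin was that of the gene itself, and for a list median the mean over the 10 genes.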
